A study of Homo sapiens with 4 samples.

Results

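Cancer-testis antigen genes were taken by name from the gene annotation as protein-coding genes whose symbol starts with MAGEA, MAGEB, MAGEC, GAGE, PAGE, XAGE, SSX or CTAG, together with PRAME, CT83, SPANXA1, SPANXB1, SPANXC and SPANXD. The rule gave 71 analysed genes out of 56865 genes in all, of which 19692 were protein coding. BAGE is not annotated as protein coding in the release used and so was not a member, and GAGE12D, GAGE12G and SSX4B were not analysed here. The families were MAGEA with 12 genes, GAGE and MAGEB with 11 each, SSX with 7, PAGE with 6, XAGE with 5, SPANX with 4, CTAG with 3, MAGEC with 3, and CT83 and PRAME with 1 each. The name rule also caught SSX2IP, whose product binds an SSX protein, and 6 CTAGE genes, which are distinct from the CTAG1 and CTAG2 family. These 7 genes are given separately, which leaves 64 genes, of which 63 lie on the X chromosome and PRAME lies on chromosome 22.

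The study measured poly(A) RNA by sequencing in MDA-MB-468, a human basal-like, triple-negative breast carcinoma line, which the sample labels spell MDA-MD-468. The groups were 2 libraries of cells given MS1943 at 5 µM for 3 days and 2 libraries of cells given the solvent DMSO, all from passage 12 of the line. MS1943 is a selective degrader of EZH2, the methyltransferase of Polycomb repressive complex 2, which places the repressive methyl mark on lysine 27 of histone H3. Both groups are 1 cell line, the labels do not say whether libraries came from separate cultures, and p-values then measure only the spread between these libraries, which may be technical.

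Cancer-testis genes are transcribed in male germ cells, some of them also in placenta, and are silent in most other normal tissues. Methylation of CpG dinucleotides in their promoters, together with repressive histone marks, is the best-described basis of that silence, and many tumours express some of them. Type I MAGE proteins share a MAGE homology domain through which they bind RING ubiquitin ligases, SSX proteins are transcriptional repressors that associate with Polycomb proteins, and peptides of many family members are presented on MHC class I and recognised by T cells.

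The promoter sequences below are those of the 3 genes called released (defined below) and, for contrast, of 2 genes expressed in all 4 libraries. They are RefSeq sequences on GRCh38.p14, each from 250 bases before to 50 bases after the annotated start, written 5′ to 3′ on the strand of the gene, with every CpG dinucleotide in capitals.
MAGEC2: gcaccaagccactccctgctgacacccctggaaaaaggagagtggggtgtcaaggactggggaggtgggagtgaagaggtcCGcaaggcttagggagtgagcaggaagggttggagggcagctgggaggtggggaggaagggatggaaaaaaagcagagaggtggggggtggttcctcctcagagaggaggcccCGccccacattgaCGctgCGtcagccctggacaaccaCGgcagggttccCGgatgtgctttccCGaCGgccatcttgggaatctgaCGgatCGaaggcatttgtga
SSX1: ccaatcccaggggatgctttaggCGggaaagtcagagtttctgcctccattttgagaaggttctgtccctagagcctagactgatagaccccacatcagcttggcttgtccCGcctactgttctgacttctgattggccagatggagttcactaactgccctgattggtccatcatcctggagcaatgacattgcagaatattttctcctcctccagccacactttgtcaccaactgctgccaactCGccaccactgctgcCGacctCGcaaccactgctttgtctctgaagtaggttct
MAGEB10: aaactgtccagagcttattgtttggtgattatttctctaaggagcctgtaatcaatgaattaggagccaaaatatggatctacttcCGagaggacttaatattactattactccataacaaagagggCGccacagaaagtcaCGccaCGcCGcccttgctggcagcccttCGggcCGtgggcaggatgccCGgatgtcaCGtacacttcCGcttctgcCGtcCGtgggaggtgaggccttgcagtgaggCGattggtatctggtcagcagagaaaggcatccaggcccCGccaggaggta
MAGEA3: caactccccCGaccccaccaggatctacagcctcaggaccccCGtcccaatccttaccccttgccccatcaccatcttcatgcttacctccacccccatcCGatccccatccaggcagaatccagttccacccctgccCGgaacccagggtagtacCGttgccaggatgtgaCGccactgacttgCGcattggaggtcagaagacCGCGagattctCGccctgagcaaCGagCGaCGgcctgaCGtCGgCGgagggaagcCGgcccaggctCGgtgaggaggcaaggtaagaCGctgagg
MAGEA12: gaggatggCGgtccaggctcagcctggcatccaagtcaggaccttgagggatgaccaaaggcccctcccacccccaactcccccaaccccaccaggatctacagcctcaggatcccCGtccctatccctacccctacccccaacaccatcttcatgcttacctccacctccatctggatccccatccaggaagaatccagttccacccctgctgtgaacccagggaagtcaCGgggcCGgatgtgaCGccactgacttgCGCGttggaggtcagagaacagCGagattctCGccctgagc
The MAGEC2 window (chrX:142205241-142205540, minus strand) held 10 CpG dinucleotides. The SSX1 window (chrX:48255142-48255441, plus strand) held 5 CpG, and the MAGEB10 window (chrX:27807740-27808039, plus strand) held 14 CpG. The MAGEA3 window (chrX:152698544-152698843, plus strand) held 19 CpG and the MAGEA12 window (chrX:152733507-152733806, plus strand) held 9 CpG. The window of MAGEA6 was identical to that of MAGEA3 at 300 of 300 positions.

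Silent and read members did not separate by the number of CpG in this window. The 3 released genes had a median of 10 CpG (range 5 to 14). The median was 13.5 CpG (range 1 to 21) over 10 detected members. Over 42 silent members that were not released it was 11.5 CpG (range 3 to 21). The median over all 27305 promoters of the same length in the RefSeq table was 14 CpG. The letters CCGGAA, 1 form of the site to which ETS factors bind, were searched on both strands. They were found in 5 of 56 cancer-testis promoters (8.93%), in MAGEA3, MAGEA6, CT83, MAGEB6 and PRAME, against 17.6% of all promoters. Other forms of that site were not searched, so a promoter without these letters may still hold one. MAGEB6 and PRAME were silent and the other 3 genes were expressed. Near-identical copies share most of their promoter letters and so are not independent examples, and the RefSeq start differed from that of the annotation used for counting by 75 bases for SSX1, 42 bases for MAGEA3 and 22 bases for MAGEA12. In 6 of the 42 silent members it differed by 3791 to 188705 bases, so that their windows belong to another start.

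Most members were not transcribed at a measurable level in either group. A gene was called silent when it had fewer than 10 estimated reads in both DMSO libraries, and released when it was silent and had at least 10 reads in both MS1943 libraries. With 54 of the 71 members silent in DMSO cells, 3 were released (5.56%), namely MAGEC2, SSX1 and MAGEB10. Among all protein-coding genes, 131 of 5033 silent genes were released (2.6%). Of 16 members with at least 10 reads in both DMSO libraries, 1 had fewer than 10 in both MS1943 libraries (MAGEA4), against 237 of 14084 protein-coding genes (1.68%). These are counts of few genes with few reads, and the background moved with the libraries. Without DMSO replicate 2 the released genes were 3 of 55 silent members and 232 of 5462 silent protein-coding genes. Without MS1943 replicate 2 they were 4 of 54 members and 286 of 5033 protein-coding genes. The protein-coding genes switched off numbered 455 without DMSO replicate 1 and 499 without MS1943 replicate 1. With a limit of 0.2 CPM, 2 of 54 silent members and 184 of 5554 silent protein-coding genes were released. With a limit of 3 reads in place of 10 a single member was released, SSX1, of 44 silent. With a limit of 30 reads the single member was MAGEC2, of 57 silent. None was switched off at either limit. No member was thus released at all of these read limits, and the share over protein-coding genes at 3 and 30 reads is not given here.

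The silent families included antigens that are targets of vaccines and of T cell therapy. No read was assigned in any library to 22 members, among them all 4 SPANX genes, 4 of 6 PAGE genes, 4 of 11 MAGEB genes, 4 of 11 GAGE genes and 3 of 5 XAGE genes, including XAGE1A. Another 27 members had some reads but fewer than 10 in every library. CTAG1A and CTAG1B, the 2 copies that encode NY-ESO-1, together had 0 and 1 reads in MS1943 libraries and 2 and 2 reads in DMSO libraries. PRAME, which encodes a subunit that brings substrates to a cullin ubiquitin ligase, had 4 and 1 reads with MS1943 and 0 and 6 reads with DMSO. The 11 GAGE genes together had 3 and 6 reads with MS1943 and 3.04 and 13.0 reads with DMSO. All of these sums overlapped between the groups or differed by a few reads, and no difference was detectable at this depth. The limit that a count of 0 allows (3 reads) was 0.0451 and 0.0656 CPM (reads scaled to library size) in the MS1943 libraries, against 0.0456 and 0.0400 CPM in the DMSO libraries, which covers counting error only.

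**Figure D1:**
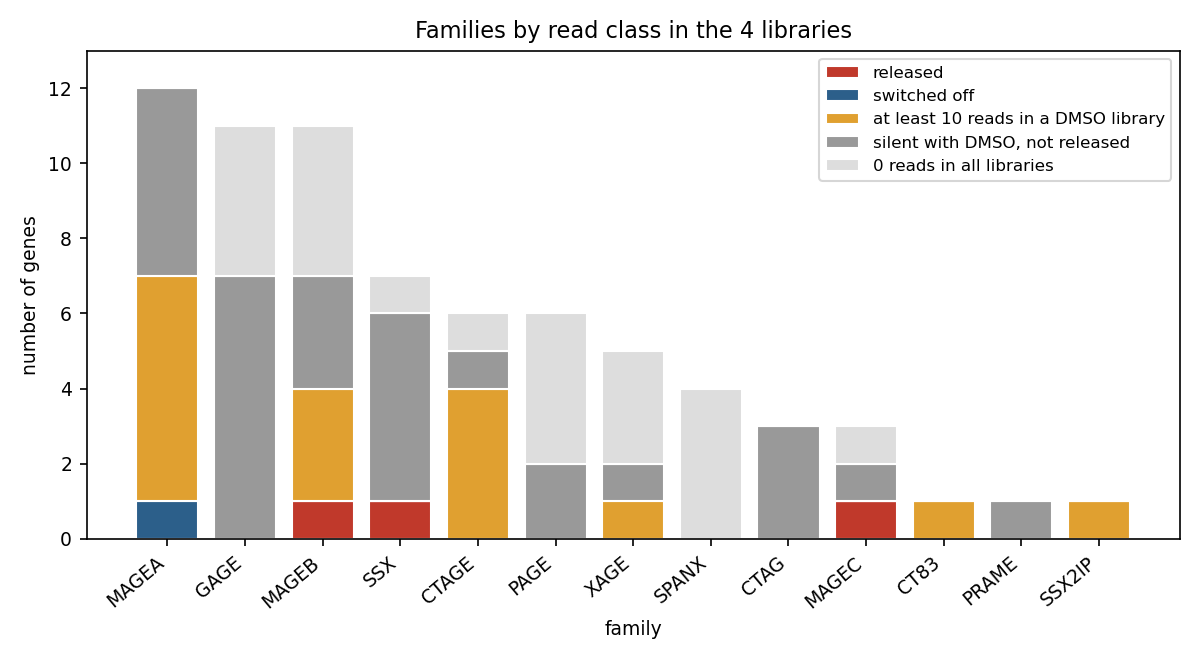
Number of member genes (vertical axis) in each family (horizontal axis), split by class: released with MS1943, switched off with MS1943, with at least 10 reads in a DMSO library, silent with DMSO and not released, and with no read in any library. Released genes are 1 each in MAGEB, MAGEC and SSX, and all 4 SPANX genes have no read.

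MAGEC2 had the most reads of the 3 released genes. MAGEC2 (ENSG00000046774, hg38, chrX:142202345-142205290, minus strand) encodes a MAGE protein that binds the ubiquitin ligase TRIM28. It had 79 and 49 reads in the MS1943 libraries and 4 and 6 reads in the DMSO libraries. In TPM, a unit scaled by transcript length and library total, its level was 0.880 and 0.795 with MS1943, against 0.0486 and 0.0661 with DMSO. Both MS1943 libraries were far above both DMSO libraries, although the level reached was below 1 TPM. Its log2 fold change was 3.96 ± 0.39 (SE, n = 2 libraries a group) in edgeR's quasi-likelihood test, with a Benjamini-Hochberg adjusted p of 4.87e-08. The ratio of reads scaled to library size was 16.1, with an exact 95% interval of 8.46 to 34.3 for counting error. In bulk RNA a rise in few cells cannot be told apart from a small rise in all of them, just as fewer cells of a type and less RNA per cell cannot be told apart.

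SSX1 (ENSG00000126752, chrX:48255317-48267444, plus strand), 1 of the SSX genes that fuse to SS18 in synovial sarcoma, had 14.3 and 15 reads with MS1943 and 1 and 0 reads with DMSO. Its level was 0.267 and 0.409 TPM in MS1943 cells, against 0.0205 and 0 TPM in DMSO cells. The groups did not overlap, and the DMSO group held a single read. The log2 fold change was 4.86 ± 0.91 (SE) with an adjusted p of 1.29e-04 by edgeR, and the ratio of reads was 36.4 with a counting interval of 6.04 to 1487. The other SSX genes had too few reads to pass the filter on low counts. SSX7 had 7 and 2 reads with MS1943 and 2 and 6 reads with DMSO, SSX4 had 4 and 0 reads with MS1943 and 0 reads in both DMSO libraries, SSX2 and its copy SSX2B together had 2 and 0 reads with MS1943 and 0 and 1 reads with DMSO, and SSX5 had no read.

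MAGEB10 (ENSG00000177689, chrX:27807990-27823014, plus strand), a less studied member of the MAGE-B family, had 13.1 and 12.7 reads with MS1943 and 4.11 and 5.09 reads with DMSO. The groups did not overlap, and the gene lies close to the limit of 10 reads in every library. Its log2 fold change was 1.85 ± 0.59 (SE) with an adjusted p of 0.0115 by edgeR. That call was lost when any 1 of the 4 libraries was left out (adjusted p from 0.0552 to 0.178) and with DESeq2 (adjusted p = 0.144). MAGEC1 (chrX:141903894-141909388, plus strand), also known as CT7 and frequent in myeloma, had 17 and 8 reads with MS1943 and 2 and 4 reads with DMSO, so that 1 MS1943 library stayed under the limit. Its log2 fold change was 2.32 ± 0.66 (SE), with an adjusted p of 0.00491 by edgeR, of 0.0558 without DMSO replicate 1, and of 0.0983 with DESeq2. When MS1943 replicate 1 was left out, MAGEC1 did not pass the filter on low counts and was not tested. MAGEA1, a long-known T cell antigen gene, had 6 and 10 reads with MS1943 and 4 and 2 reads with DMSO and did not pass the filter on low counts. Without that filter it was not called (log2 fold change 1.71 ± 0.86, SE, adjusted p = 0.128 by edgeR). The third MAGEC gene, MAGEC3, had no read in any library.

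The 4 genes MAGEC2, SSX1, MAGEC1 and MAGEB10 reached the filter on low counts through the MS1943 libraries, and MAGEA4 through the DMSO libraries. MAGEC2, SSX1 and MAGEB10 were also named as released from the same reads. The fold changes and adjusted p of these genes, and counts of calls over the tested members, are therefore descriptions only. Summed over the MAGEC family, the level was 0.961 and 0.850 TPM with MS1943, against 0.0589 and 0.0895 TPM with DMSO. The SSX family summed to 0.528 and 0.463 TPM with MS1943, against 0.0609 and 0.153 TPM with DMSO. Both sums stayed far below that of the MAGEA family, which was 830 and 802 TPM with MS1943 and 842 and 815 TPM with DMSO.

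**Figure D2:**
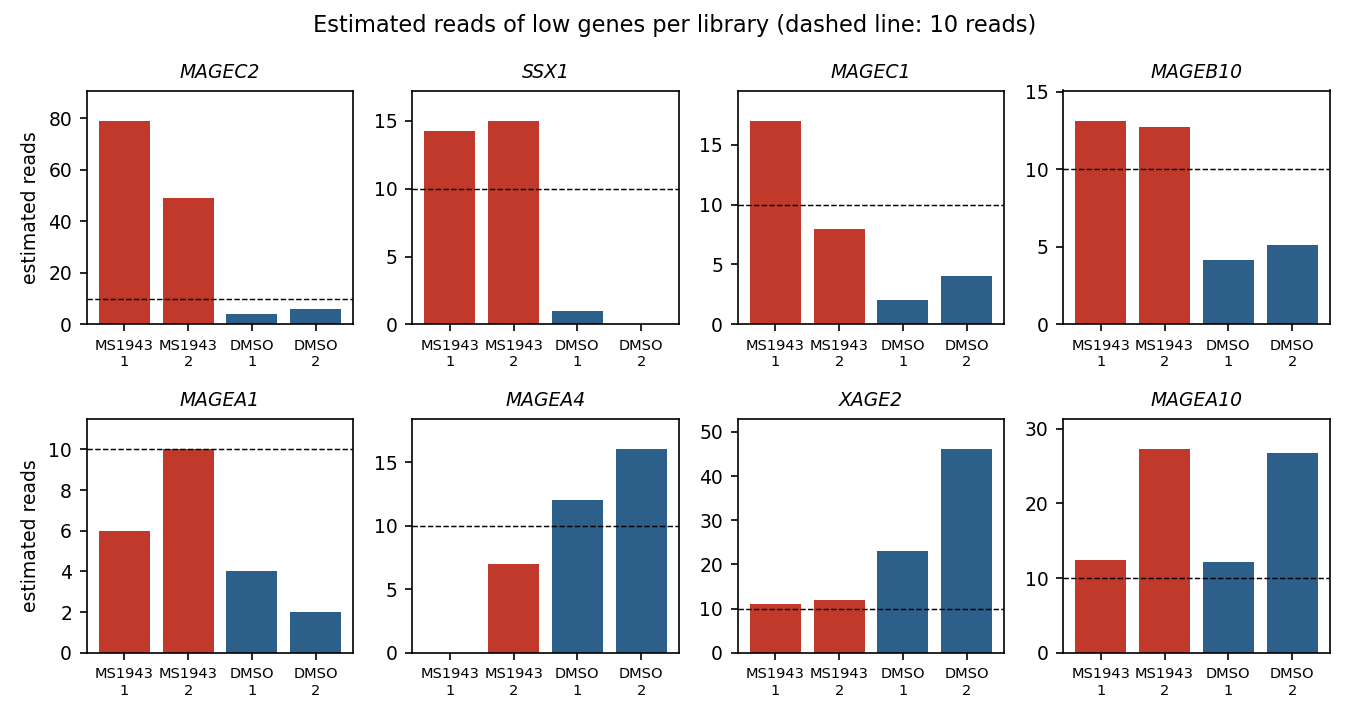
Estimated reads (vertical axes, each from 0 with its own scale) of 8 members with few reads, 1 panel a gene and 1 bar a library, MS1943 libraries in red and DMSO libraries in blue, with a dashed line at the limit of 10 reads. MAGEC2 stands at 79 and 49 reads with MS1943, against 4 and 6 reads with DMSO, and XAGE2 lies the other way.

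Nearly all cancer-testis RNA in this line came from 5 genes of the MAGEA family that were already expressed with DMSO. MAGEA3, MAGEA6, MAGEA12, MAGEA2 and MAGEA2B lie within 1 stretch of the X chromosome, from the start of MAGEA3 at 152698752 to the end of MAGEA6 at 152769747 (hg38). They carried 94.7% and 94.1% of the TPM of the 64 genes with MS1943, against 93.2% and 93.0% with DMSO. MAGEA3 alone ranked 574 with MS1943 and 557 with DMSO among 19692 protein-coding genes. Changes below are given from edgeR, which scales libraries to the bulk of the genes. On the TPM scale the median tested gene moved by -0.13 (log2) and with scaling to total reads by -0.12, so TPM ratios read lower by about that much.

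MAGEA3 (chrX:152698752-152702347, plus strand), whose protein binds TRIM28 and directs it to the energy sensor AMPK, had 257 and 238 TPM with MS1943 and 273 and 268 TPM with DMSO. The transcript MAGEA3-201 held 88.7% and 92.3% of the gene's reads with MS1943, against 91.8% and 91.3% with DMSO. The log2 fold change of MAGEA3 was -0.02, with a 95% interval of -0.13 to 0.10 and an adjusted p of 0.840. MAGEA6 (chrX:152766136-152769747, minus strand), a near-identical copy with the same partner, had 152 and 154 TPM with MS1943 and 183 and 175 TPM with DMSO. It was not called (log2 fold change -0.10 ± 0.06, SE, adjusted p = 0.128), but was called lower without DMSO replicate 2 (-0.17, adjusted p = 0.00879). With scaling to total reads both were called lower, MAGEA3 at -0.13 (adjusted p = 0.0223) and MAGEA6 at -0.22 (adjusted p = 0.00158). Reads cannot be divided with certainty between copies this alike. Summed over both genes, the level was 399.9 ± 12.1 TPM with MS1943 and 449 ± 8.98 TPM with DMSO (SD, n = 2 each), and the log2 fold change was -0.05 ± 0.06 (SE, adjusted p = 0.469 by edgeR). Under total-read scaling that sum was called lower, at -0.16 (adjusted p = 0.0059).

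MAGEA2 and MAGEA2B, an inverted pair of near-identical copies that encode MAGE-A proteins, were higher with MS1943. MAGEA2B (chrX:152714586-152718607, plus strand) had 191 and 176 TPM with MS1943 and 152 and 138 TPM with DMSO (log2 fold change 0.59 ± 0.07, SE, adjusted p = 5.76e-07 by edgeR). MAGEA2 (chrX:152749863-152753884, minus strand) had 93.8 and 98.2 TPM with MS1943 and 87.7 and 96.6 TPM with DMSO. The ranges of MAGEA2 overlapped on the TPM scale, and its call (0.21 ± 0.06, SE, adjusted p = 0.00352 by edgeR) did not hold when libraries were scaled to total reads (adjusted p = 0.162) or when MS1943 replicate 2 was left out (adjusted p = 0.0523). The quantification divides shared reads between the 2 copies, so the sum is the firmer value. It was 279 ± 7.66 TPM with MS1943 and 237 ± 3.61 TPM with DMSO (SD, n = 2 each), a log2 fold change of 0.37 ± 0.05 (SE, adjusted p = 8.45e-06 by edgeR). With total-read scaling the sum was still called higher (0.26, adjusted p = 2.57e-04).

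MAGEA12 (chrX:152733779-152737669, plus strand), which lies between them, had 137 and 136 TPM with MS1943 and 147 and 137 TPM with DMSO. It was not called (log2 fold change 0.08, 95% interval -0.04 to 0.20, adjusted p = 0.240). Without DMSO replicate 1 it was called higher (0.15, adjusted p = 0.0233), and with total-read scaling its sign turned (-0.03). The other MAGEA genes were at or near the limit of detection. MAGEA10 had 12.4 and 27.2 reads with MS1943 and 12.2 and 26.8 reads with DMSO (adjusted p = 0.514 by edgeR), and it overlaps the readthrough gene MAGEA10-MAGEA5 on the same strand. MAGEA4, the target of engineered T cells in sarcoma, had 0 and 7 reads with MS1943 and 12 and 16 reads with DMSO. Its log2 fold change of -1.59 ± 0.79 (SE) was not called (adjusted p = 0.0915 by edgeR), but was called lower without MS1943 replicate 2 (adjusted p = 0.00418). The library preparation does not keep strand, and the antisense gene MAGEA4-AS1, which overlaps MAGEA4, had 3 and 6 reads with MS1943 and 0 reads in both DMSO libraries.

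**Figure D3:**
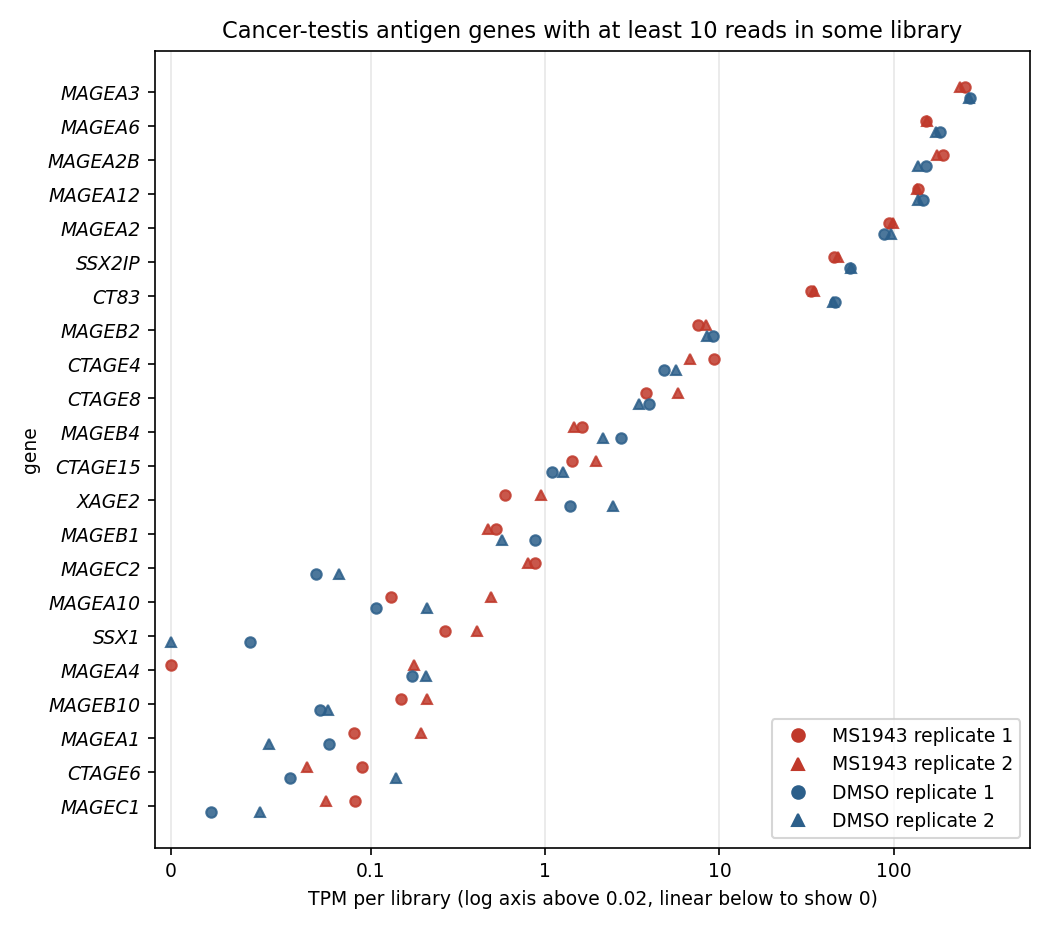
Level in TPM (horizontal axis, log, and linear close to 0) of the members with at least 10 reads in some library, 1 point a library, MS1943 libraries in red and DMSO libraries in blue. The 5 MAGEA genes lie near or above 100 TPM in both groups, and MAGEC2 lies below 1 TPM in all 4 libraries.

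Several members expressed with DMSO were lower with MS1943. CT83 (chrX:116461682-116463003, minus strand), the antigen KK-LC-1 of lung and triple-negative breast cancers, fell to 33.4 and 34.8 TPM with MS1943, against 45.9 and 45.0 TPM with DMSO. The groups did not overlap, but the log2 fold change was only -0.27 ± 0.09 (SE, adjusted p = 0.0193 by edgeR). That call was lost when MS1943 replicate 1 was left out (adjusted p = 0.0890) and with DESeq2 (adjusted p = 0.134). XAGE2 (chrX:52369030-52375680, plus strand), of a family first described in placenta and Ewing sarcoma, had 11 and 12 reads with MS1943 and 23 and 46 reads with DMSO. Its log2 fold change was -1.22 ± 0.43 (SE, adjusted p = 0.0210 by edgeR), and it was not called without DMSO replicate 2 (adjusted p = 0.303), without MS1943 replicate 1 (adjusted p = 0.194), with DESeq2 (adjusted p = 0.187) or with a correction for transcript length (adjusted p = 0.0532).

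In the MAGEB family, MAGEB4 (chrX:30242052-30244193, plus strand) had 1.64 and 1.46 TPM with MS1943 and 2.72 and 2.16 TPM with DMSO. The log2 fold change was -0.51 ± 0.17 (SE, adjusted p = 0.0118 by edgeR), and the call was lost without DMSO replicate 1 (adjusted p = 0.157) and with DESeq2 (adjusted p = 0.0987). MAGEB1, which overlaps MAGEB4 on the same strand and may share reads with it, had 0.526 and 0.470 TPM with MS1943 and 0.875 and 0.569 TPM with DMSO (adjusted p = 0.279). MAGEB2, the most abundant gene of that family here, had 7.51 and 8.37 TPM with MS1943 and 9.13 and 8.47 TPM with DMSO (log2 fold change -0.02 ± 0.10, SE, adjusted p = 0.886 by edgeR). The 3 neighbouring genes thus held most of the MAGEB level, which summed to 9.85 and 10.5 TPM with MS1943 and 12.8 and 11.3 TPM with DMSO, while MAGEB10 lay below 1 TPM.

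Across all 19358 genes tested, 30% were called higher and 29.4% lower with MS1943, 59.3% in all, so a call is not rare in this comparison. Of the 21 members tested, 9 were called higher and 4 lower, with a median log2 fold change of 0.08, against -0.01 over all genes tested. Without SSX2IP and the CTAGE genes, 16 were tested, of which 6 were called higher, 3 lower and 7 in neither direction, with a median of 0.03. The 6 include MAGEC2, SSX1, MAGEC1 and MAGEB10, which passed the filter through the MS1943 libraries. The MS1943 and DMSO libraries did not overlap in scaled CPM for 16 of the 21 members, against 78.3% of all genes tested. DESeq2 called 4889 genes higher and 4503 lower, of 35443 with any read. With DESeq2 the counts of the 21 were 7 higher and 1 lower, the 1 being SSX2IP, and the count called higher fell to 5 without MS1943 replicate 2 and the count called lower to 2 without MS1943 replicate 1.

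**Figure D4:**
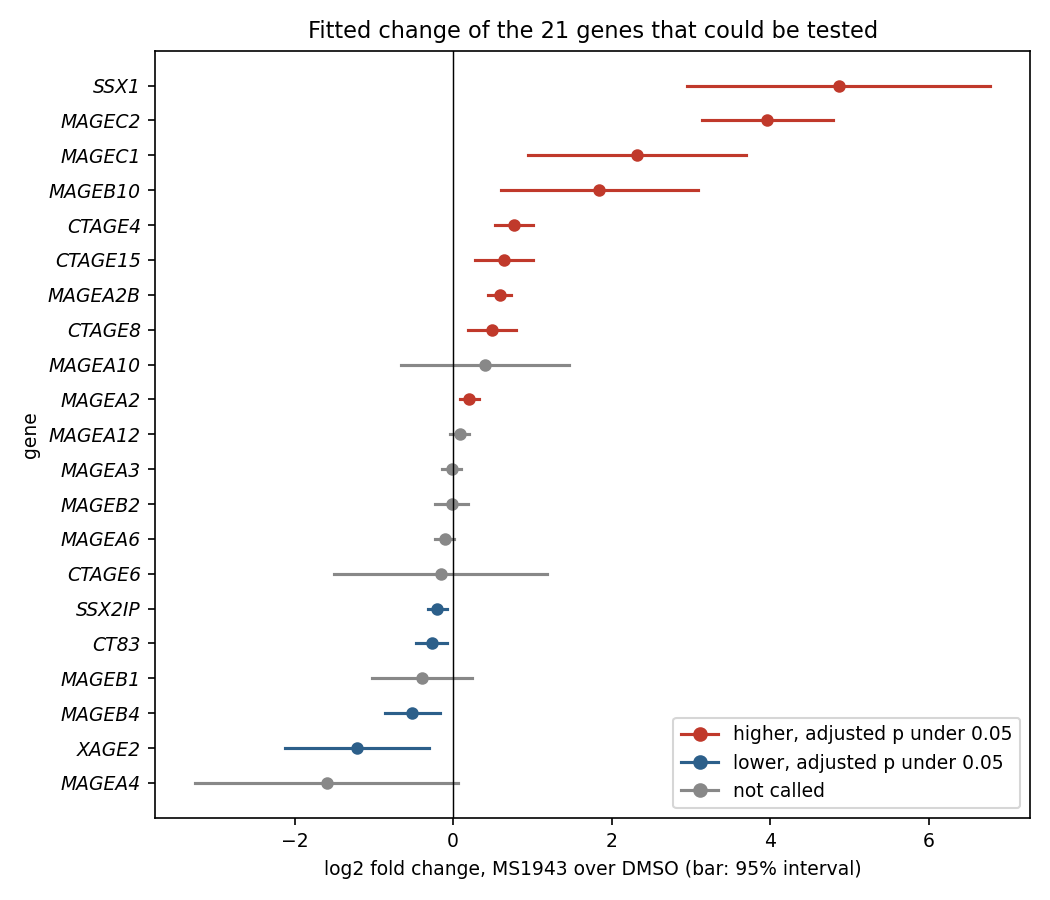
Log2 fold change (MS1943 over DMSO, edgeR) of the tested members, with 95% intervals as bars and calls at an adjusted p under 0.05 in colour. SSX1 at 4.86 and MAGEC2 at 3.96 lie far to the right with wide intervals, and MAGEA3 at -0.02 lies at 0 with a narrow one.

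The 7 genes caught by name only are autosomal, and 4 of the 5 that could be tested were called, 3 higher and 1 lower. Of all genes tested, 59.3% were called. CTAGE4 (chr7:144183466-144186053), of a set of copies related to the secretory cargo receptor cTAGE5, had 9.25 and 6.80 TPM with MS1943 and 4.83 and 5.60 TPM with DMSO (log2 fold change 0.77 ± 0.11, SE, adjusted p = 1.02e-05 by edgeR). CTAGE8 had 3.81 and 5.76 TPM with MS1943 and 3.92 and 3.45 TPM with DMSO, and CTAGE15 had 1.43 and 1.96 TPM with MS1943 and 1.10 and 1.26 TPM with DMSO. Both were called higher (CTAGE8 at 0.49, adjusted p = 0.00685, and CTAGE15 at 0.64, adjusted p = 0.00393, by edgeR), and both calls were lost without MS1943 replicate 2 (adjusted p of 0.317 and 0.0925). The CTAGE8 call was also lost with total-read scaling (adjusted p = 0.0727). These copies share reads. Their sum, with CTAGE6 and CTAGE9, was 14.6 ± 0.0123 TPM with MS1943 and 10.2 ± 0.407 TPM with DMSO (SD, n = 2 each), a log2 fold change of 0.65 ± 0.07 (SE, adjusted p = 8.01e-08 by edgeR). CTAGE6 alone had 10.9 and 3.62 reads with MS1943 and 3.87 and 17.3 reads with DMSO and was not called (adjusted p = 0.853). SSX2IP (chr1:84643707-84690803), a centrosome and cell junction protein, had 45.4 and 48.1 TPM with MS1943 and 56.0 and 56.6 TPM with DMSO, and fell by 0.20 on the log2 scale (adjusted p = 0.00502 by edgeR).

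Regulators of DNA methylation and chromatin that bear on cancer-testis promoters in other systems were mostly lower with MS1943. The 30 genes include factors that act in opposite ways, among them the methyltransferases, the TET enzymes that remove the mark, and CTCFL, an activator of cancer-testis genes. Of the 29 tested, 22 were called lower (75.9%, against 29.4% of all genes tested) and 2 higher (KDM5B and MBD1), with a median log2 fold change of -0.34. TET1, TET2 and TET3 are 3 of the 22, and CTCFL was not called. UHRF1, which brings the maintenance methyltransferase to replicating DNA, had 17.2 and 16.9 TPM with MS1943 and 47.8 and 50.7 TPM with DMSO (-1.41 ± 0.06, SE, adjusted p = 7.39e-14 by edgeR). The de novo methyltransferase DNMT3B had 2.94 and 3.01 TPM with MS1943 and 7.33 and 7.40 TPM with DMSO (-1.21 ± 0.08, SE, adjusted p = 1.52e-10). DNMT3A, the other de novo enzyme, had 21.9 and 20.4 TPM with MS1943 and 40.2 and 44.7 TPM with DMSO (-0.80 ± 0.06, SE, adjusted p = 4.84e-10). TET1, which oxidises methylcytosine, also fell, to 1.03 and 1.03 TPM with MS1943, against 2.74 and 3.13 TPM with DMSO (-1.38 ± 0.08, SE, adjusted p = 5.43e-11). Writers and erasers of the mark were both among the genes called lower. EZH2 RNA was 58.9 and 61.6 TPM with MS1943 and 78.0 and 74.3 TPM with DMSO (-0.19 ± 0.06, SE, adjusted p = 0.00605 by edgeR). The compound acts on the protein, which RNA does not measure, and DNA methylation was not measured either.

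Type II MAGE genes are broadly expressed relatives outside the cancer-testis group. Of 12 such genes 5 were tested, and 2 were called, 1 higher and 1 lower, where 59.3% of all genes tested were called, with a median of 0.15. MAGEF1, whose product binds a ubiquitin ligase, fell to 14.1 and 16.2 TPM with MS1943, against 28.1 and 29.2 TPM with DMSO (-0.79 ± 0.07, SE, adjusted p = 2.21e-08 by edgeR). NSMCE3, a subunit of the SMC5/6 complex, was higher (7.82 and 7.69 TPM with MS1943, against 6.46 and 6.44 TPM with DMSO, adjusted p = 0.00182). MAGED2 had 93.9 and 85.7 TPM with MS1943 and 91.9 and 93.9 TPM with DMSO and was not called. The count called higher rose when DMSO replicate 1 was left out.

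The partners and targets through which MAGE proteins act were called at shares close to those over all genes. Of 14 genes tested, 5 were called higher (35.7%, against 30% of all genes tested) and 5 lower (35.7%, against 29.4%), with a median of -0.13. With total-read scaling 8 were called lower, as were 6973 of all 19358 genes tested. TRIM28, the ligase bound by MAGEA3, MAGEA6 and MAGEC2, fell to 457 and 402 TPM with MS1943, against 693 and 701 TPM with DMSO (-0.53 ± 0.06, SE, adjusted p = 3.09e-07 by edgeR). TRIM28 is also in the list of methylation and chromatin regulators above. SKP2, the substrate receptor of an SCF ligase, fell by 1.35 on the log2 scale (20.8 and 20.9 TPM with MS1943, against 50.7 and 52.9 TPM with DMSO, adjusted p = 4.16e-13). TRIM27, another RING ligase bound by MAGE proteins, had 110 and 122 TPM with MS1943 and 81.8 and 88.5 TPM with DMSO, and rose by 0.57 (adjusted p = 9.88e-08). USP7, the deubiquitinase that works with TRIM27, had 52.0 and 53.7 TPM with MS1943 and 37.5 and 38.7 TPM with DMSO, and rose by 0.55 (adjusted p = 4.60e-08).

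Calls among other germline genes, all but 1 of them on autosomes, went in both directions. The median log2 fold change of the list was below that over all genes tested (-0.01). Of 36 listed, 17 were tested, 6 were called higher (35.3%, against 30% of all genes tested) and 7 lower (41.2%, against 29.4%), with a median of -0.44, and 4 were called lower with DESeq2, without DMSO replicate 1 or without MS1943 replicate 2. DAZL and DDX4, defining genes of germ cells, had at most 2 reads in any library. The members with the smallest adjusted p were TTK, ATAD2 and PBK, which fell by 1.03, 0.96 and 0.95 on the log2 scale, and SPAG9, a JNK scaffold, which rose by 0.73. TTK and PBK are kinases active in mitosis and ATAD2 is a chromatin factor of proliferating cells, so these genes are not specific to germ cells. TTK had 23.2 and 21.3 TPM with MS1943 and 52.6 and 47.3 TPM with DMSO.

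Presentation of cancer-testis peptides runs through MHC class I, and genes of that route were called in both directions. Of 22 genes tested, 8 were called higher (36.4%, against 30% of all genes tested) and 11 lower (50%, against 29.4%), with a median of -0.13. NLRC5, the transactivator of class I genes, had 23.1 and 21.7 TPM with MS1943 and 10.6 and 11.9 TPM with DMSO (1.06 ± 0.06, SE, adjusted p = 3.55e-11 by edgeR). HLA-C, a class I heavy chain, had 220.2 and 219.9 TPM with MS1943 and 139.8 and 139.6 TPM with DMSO (0.77 ± 0.05, SE, adjusted p = 3.75e-10). PSMB9, a catalytic subunit of the immunoproteasome, fell to 39.4 and 39.7 TPM with MS1943, against 87.8 and 83.5 TPM with DMSO (-1.02 ± 0.07, SE, adjusted p = 1.52e-10). PSME1, a subunit of the proteasome activator, fell to 113 and 120.3 TPM with MS1943, against 223.5 and 212.6 TPM with DMSO (-0.77 ± 0.06, SE, adjusted p = 8.92e-10).

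**Figure D5:**
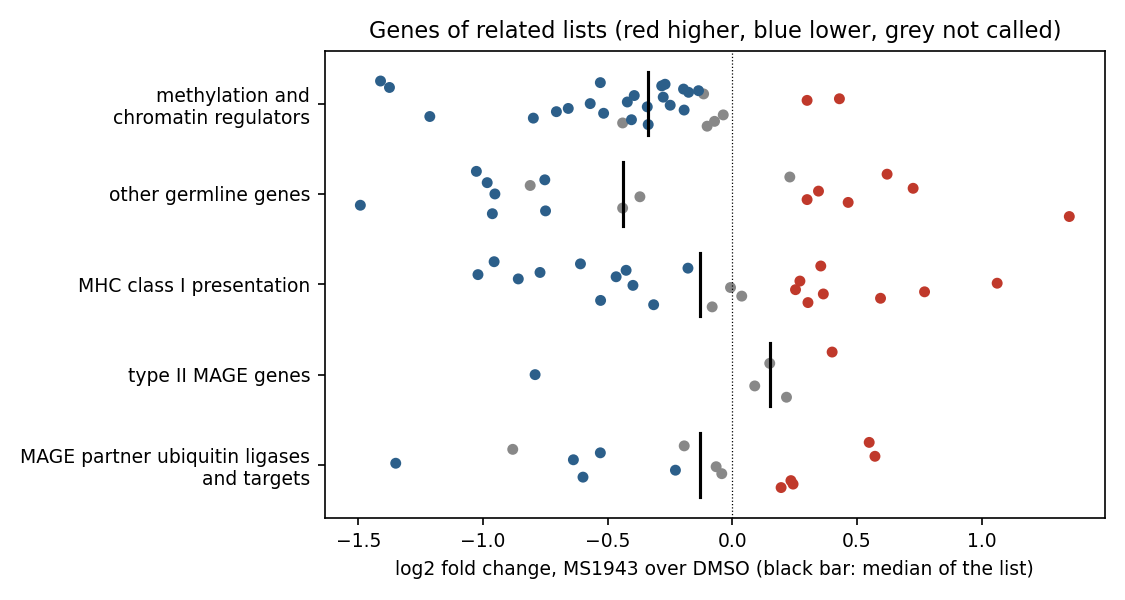
Log2 fold change (MS1943 over DMSO, edgeR, horizontal axis) of every tested gene in 5 related lists (rows), 1 point a gene, with the median of each list marked. The median of the methylation and chromatin regulators is -0.34 and that of the MHC class I genes is -0.13.

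The libraries held between 47564377 and 71378893 estimated reads, and the library with the fewest is MS1943 replicate 2. All 12 epithelial markers listed for this line, not all of them basal, were expressed. They summed to 11003 and 10454 TPM with MS1943, against 8216 and 8381 TPM with DMSO. Of these 12, 6 were called higher (50%, against 30% of all genes tested), namely KRT5, KRT6A, KRT14, KRT16, KRT17 and EGFR. The 4 called lower (33.3%, against 29.4%) were KRT8, KRT19, CDH1 and CDH3. Of the receptors lacking in triple-negative cells, PGR had no read. ESR1 had 1.16 and 1.08 TPM with MS1943 and 1.08 and 0.851 TPM with DMSO and was called higher. ERBB2 had 22.4 and 21.3 TPM with MS1943 and 31.6 and 32.9 TPM with DMSO and was called lower. The 8 leukocyte markers summed to 129 and 135 TPM with MS1943, against 191 and 191 TPM with DMSO, and PTPRC had at most 10.1 reads in a library. CD14 made up most of that sum, with 95.9 and 103 TPM with MS1943 and 187 and 189 TPM with DMSO. CD68, a lysosomal protein of macrophages, went the other way, with 31.7 and 30.6 TPM with MS1943 and 1.72 and 0.733 TPM with DMSO (log2 fold change 5.03 ± 0.11, SE, adjusted p = 3.26e-17 by edgeR). The 6 endothelial markers summed to 0.980 and 0.815 TPM with MS1943, against 2.35 and 2.18 TPM with DMSO. All 4 that were tested were called lower, as were 29.4% of all genes tested. CDH5 had 9 and 5 reads with MS1943 and 35 and 30 with DMSO, and VWF had 3 and 2, against 13 and 11. Both passed the filter on low counts through the DMSO libraries, so their calls are descriptions only. The untested TEK had 4 and 4 reads with MS1943 and 2 and 12 with DMSO, and CLDN5 had 7 and 4, against 2 and 2. The 8 fibroblast markers summed to 19.0 and 16.6 TPM with MS1943, against 13.6 and 11.7 TPM with DMSO, mostly COL1A1. Of the 4 tested, 2 were called higher (50%, against 30% of all genes tested), COL1A1 and PDGFRB. PDGFRB had 20 and 9 reads with MS1943 and 2 and 6 with DMSO. It passed the filter through the MS1943 libraries, so its call is a description only. The part of these marker changes in the results above was not tested. Germ cell and Sertoli markers, 8 genes, summed to 163 and 174 TPM with MS1943, against 107 and 116 TPM with DMSO. SOX9, which many epithelial cells express, made up 147 and 155 TPM of that sum with MS1943 and 92.8 and 98.6 TPM with DMSO, while DAZL and DDX4 were at or near 0. AMH had 14.4 and 17.0 TPM with MS1943 and 11.9 and 15.3 TPM with DMSO. Of the 5 tested, 1 was called higher (SOX9, 20%, against 30% of all genes tested). POU5F1 was called lower (20%, against 29.4%), with 67.2 and 48.0 reads with MS1943 and 112 and 110 with DMSO. AMH, INHA and NANOG were not called, and UTF1 had no read.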

How the data were processed

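Poly(A) RNA of 4 MDA-MB-468 libraries was sequenced from unstranded preparations, per the labels' protocols. The deposited files give, per transcript, estimated counts, TPM and effective length from Salmon 0.9.1 on hg38, per the submitters' processing notes; the role of each other tool named there (R 3.4.3, DESeq2) is not given in the sources used here. Of 197653 transcripts, 193505 matched GENCODE 29 and were summed per gene; the other 4148 held 0.482% to 0.496% of reads and were left out. Estimated counts were rounded to whole numbers and 19358 genes passing filterByExpr were tested with edgeR 4.0.16 (R 4.3.3, TMM scaling, quasi-likelihood F test, Benjamini-Hochberg adjustment over all of them, threshold 0.05). TPM are shown as levels. No call was made on TPM. Exact intervals (95%) for ratios of reads cover counting error only. Named were all members with at least 10 reads in some library, EZH2, and up to 4 genes of each other list by smallest adjusted p, of which 1 is not reported here, besides KDM5B, MBD1, TRIM28, MAGED2, DAZL, DDX4 and single marker genes, which were chosen after their values were seen. Members and lists were chosen with earlier results of these data known. Alternatives were scaling to total reads, DESeq2 1.42.0, a length offset, no filter on low counts, other limits for silence, merged copies and leaving out each library; merged copies with total-read scaling or with a library left out were chosen after seeing the data. The procedure was tested on simulated data in which no gene or few genes changed, a setting unlike these data. The spread within a group exceeded counting noise (chi-square divided by its degrees of freedom was 6.50 for MS1943 and 7.01 for DMSO), so no pair of libraries was treated as 1 library deposited again. That spread does not show whether the cultures were separate. RefSeq promoters (GRCh38.p14) matched 63 of the 71 members by symbol.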

Additional observations from a re-analysis of the deposited data

How the results depend on the processing

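Of 201 recomputed member fold changes, 168 kept their direction and side of the threshold, 21 lost a call, 5 gained one and 7 changed sign. MAGEC2, SSX1, MAGEA2B, CTAGE4 and SSX2IP kept their calls under every alternative run. For MAGEC2 and SSX1, which were named as released from the same reads, this is a description only. Sign changes, all in uncalled genes, were MAGEA12 with total-read scaling (-0.031) and, with 1 library left out, CTAGE6 (-0.78 to 1.08, of which 0.16 without MS1943 replicate 2), MAGEA10 (-0.61 to 1.09), MAGEA3 (-0.059 to 0.021) and MAGEB2 (-0.10 to 0.054). With 1 library left out, members called higher ranged from 5 to 8, members called lower from 2 to 5, those called lower without SSX2IP and CTAGE from 1 to 4, type II MAGE genes called higher from 1 to 4, germline genes called lower from 4 to 6, protein-coding genes released from 163 to 286 and switched off from 290 to 499. DESeq2 called 1 member lower, 0 without SSX2IP and CTAGE, and 4 germline genes lower, against 4503 of the 35443 genes with any read. Scaling to total reads called 5 members without SSX2IP and CTAGE lower and 8 MAGE partners lower, against 6973 of the 19358 genes tested. With copies merged 34 members were silent. Released members numbered 1 with a limit of 3 reads (SSX1) and 1 with a limit of 30 reads (MAGEC2). Switched off members numbered 0 with limits of 3 reads, 30 reads, 0.1 TPM or 0.2 CPM. From CPM in place of TPM the log2 ratio of family sums was -0.27 for CT83, 0.65 for CTAGE, 0.085 for MAGEA and -0.20 for SSX2IP, against -0.41, 0.52, -0.02 and -0.27 from TPM. Where not set by the construction of an alternative, the cause was not tested. Genes with fewer than about 30 reads in all are limited by depth. No paired analysis was possible because the labels give the groups no replicate numbers.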

Other observations

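Other X-linked cancer-testis genes, outside the name rule, were listed after the data had been seen, and the list supports nothing on its own. Of 28 genes, 8 were tested and 12 had no read in any library. Of the 8, 1 was called higher (12.5%, against 30% of all genes tested), 2 lower (25%, against 29.4%) and 5 in neither direction. PLAC1, a placental gene, had 33 and 31 reads with MS1943 and 10 and 9 reads with DMSO (log2 fold change 2.08 ± 0.42, SE, adjusted p = 2.85e-04 by edgeR). CSAG1, next to the MAGEA cluster, had 102 and 101 TPM with MS1943 and 112 and 107 TPM with DMSO and was not called. CSAG3, a relative of CSAG1, had 37.5 and 41.5 TPM with MS1943 and 49.6 and 48.7 TPM with DMSO (log2 fold change -0.18 ± 0.08, SE, adjusted p = 0.0455 by edgeR). CT55 had 7 and 8 reads with MS1943 and 21 and 22 reads with DMSO (adjusted p = 0.0466 by edgeR).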
